A study of Mus musculus with 16 samples.

Results

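The glycolysis and hypoxia-response genes described here are 32 mouse genes listed by symbol: the enzymes that turn glucose into lactate with the regulator Pfkfb3, and other genes known as targets of the hypoxia-inducible factor HIF, with its subunit Hif1a. A gene was represented by the probe set with the highest mean signal among those annotated to that symbol alone. Of the 32 genes, 29 had such a probe set, out of 12394 genes on the array, and 26 passed the filter on low signal, out of 7620 genes tested. Those 26 were 13 enzymes (Pfkfb3 counted among them) and 13 other members. Pfkp, Eno2 and Slc16a3 lay below the filter, so their signals are given without a test. Gpi1 and Eno1 were not analysed here, and Bnip3l was annotated only on 3 probe sets that it shares with another symbol. Gapdh was read from the middle one of 3 array control probe sets, which lie along its transcript.

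Cells were adult mouse neural stem cells in culture, carrying the Tlx alleles that the labels write as f and Z. Tlx is the orphan nuclear receptor Nr2e1, which keeps such cells in a proliferating state. Cultures labelled Tlx(f/Z;CreER) also held CreER, a recombinase that enters the nucleus once 4-hydroxytamoxifen (4OH-TM, drawn as 4OHT in the plots) is bound, and cultures labelled Tlx(f/Z) had no Cre. RNA was taken 36 h or 60 h after 4OH-TM or vehicle was given to either kind, which made 8 groups of 2 arrays and 16 arrays in all. The labels name neither the promoter that drives CreER nor the age of the mice. The series' design text calls the 2 samples of each group biological replicates. Whether they were separate animals or separate dishes is not stated. For values as deposited, the spread behind each p-value is only that between such samples over genes of like brightness, not the gene's own.

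Trimmed mean signal per array ran from 300.7 to 439, a ratio of 1.46 that was left in the values as deposited. Replicates correlated at 0.988 to 0.991 across probe sets. Esr1, whose sequence is part of the CreER fusion, gave 382 ± 55.1 (SD, n = 8) on CreER arrays and 21.3 ± 6.92 (SD, n = 8) on the others. Nr2e1 had 0 probe sets here, so its loss was not measured. Of the neural stem and progenitor markers, 8 of 8 with a probe set passed the filter, Nes at a mean of 2344 and Sox2 at 1712. Of 6 neuron markers Map2 and Syt1 passed, at means of 1560.3 and 116, and Tubb3, Dcx and Snap25 averaged 16.6, 15.3 and 2.38. The summed microglial markers stayed between 113 and 239 on every array, and the endothelial and mural ones between 111 and 230. In bulk RNA such as this, fewer cells that express a gene and less RNA per cell cannot be told apart.

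Glycolysis splits glucose into pyruvate in the cytosol, and lactate dehydrogenase turns pyruvate into lactate when it is not sent to the mitochondria. HIF is a pair of proteins whose alpha subunit is marked for destruction by the Egln prolyl hydroxylases while oxygen is plentiful; when oxygen is low the subunit lasts, pairs with Arnt and binds short motifs near its target genes. Those targets include glucose transporters, glycolytic enzymes, the kinase Pdk1 that holds pyruvate back from the mitochondria, and the hydroxylase Egln3 itself, and neural stem cells are known for a strongly glycolytic metabolism.

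The core of the HIF motif was looked for around the start of each member, because the largest differences described below were in genes of this kind. Windows of 300 bases, 250 before to 50 after the RefSeq start in GRCm38.p6, were searched on both strands for ACGTG and GCGTG; the palindrome CACGTG holds an overlapping match on each strand. Of the 29 measured members 27 had at least 1 window. A match was present in 30 of 38 of their windows (78.9%), in 18 of 24 windows of the enzymes (75%) and in 12 of 14 of the other members (85.7%), against 14380 of 32851 windows of all genes (43.8%). A match is a description of the letters and no evidence of binding. The members were listed as enzymes or known HIF targets, so these shares are no test. Some windows of the same gene overlap, as for Aldoa and Pfkm. The windows of all genes were not matched to the members in signal or base content. The windows of Egln3 and Pdk1, which had the largest changes after 4OH-TM, and of Bnip3, added after its large change with time was seen, are printed 5' to 3' along the gene (Slc2a3, also among the largest, had no entry), with every match in capitals (the reverse complements CACGT and CACGC are matches on the opposite strand). Egln3 lies on the minus strand at chr12:54203825-54204124 and has 1 match, Pdk1 on the plus strand at chr2:71872974-71873273 has 2, and Bnip3 on the minus strand at chr7:138909457-138909756 has 5. A further Pdk1 window held 0 matches.
Egln3: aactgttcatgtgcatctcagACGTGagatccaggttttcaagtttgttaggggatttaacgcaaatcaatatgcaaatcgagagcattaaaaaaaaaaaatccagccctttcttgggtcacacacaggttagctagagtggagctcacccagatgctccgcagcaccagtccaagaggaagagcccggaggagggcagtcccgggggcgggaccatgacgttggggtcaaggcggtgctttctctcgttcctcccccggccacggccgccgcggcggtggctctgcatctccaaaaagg
Pdk1: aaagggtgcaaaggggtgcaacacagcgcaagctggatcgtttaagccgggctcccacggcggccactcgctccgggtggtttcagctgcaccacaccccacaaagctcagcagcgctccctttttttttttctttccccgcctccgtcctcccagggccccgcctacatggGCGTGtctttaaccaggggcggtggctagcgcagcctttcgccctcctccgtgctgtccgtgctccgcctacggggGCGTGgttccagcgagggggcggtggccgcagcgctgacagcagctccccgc
Bnip3: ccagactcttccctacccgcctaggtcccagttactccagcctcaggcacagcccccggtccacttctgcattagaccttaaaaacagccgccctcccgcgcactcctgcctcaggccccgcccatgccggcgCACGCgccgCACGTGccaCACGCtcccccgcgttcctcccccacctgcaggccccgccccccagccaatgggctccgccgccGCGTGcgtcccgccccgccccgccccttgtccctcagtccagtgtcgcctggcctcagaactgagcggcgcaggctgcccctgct

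More members were called between the genotypes under vehicle than in any other comparison made. Under vehicle, CreER cultures had more signal for 12 of the 26 members tested and less for 2, where 7.97% of all genes tested were called higher and 26.6% lower (34.5% in either direction; limma, adjusted p below 0.05 after Benjamini-Hochberg over all genes). Among the other members 9 of 13 were higher and 1 lower with a median log2 difference of 1.19, against 3 higher and 1 lower of 13 enzymes with a median of 0.17. The median of all genes was -0.13 as deposited and 0.01 once arrays were scaled to a common trimmed mean, so differences are also given relative to it.

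Egln3, the prolyl hydroxylase that HIF itself induces, gave 289 and 220 at 36 h and 468 and 373 at 60 h on vehicle-treated CreER arrays, against 51.1 and 53.8, then 44.5 and 42 without Cre. Its lowest CreER array stood above its highest array without Cre, as in 6.36% of all genes tested. The log2 difference of 2.42 ± 0.15 (SE) was 2.55 relative to all genes (limma adjusted p = 1.62e-53). A second Egln3 probe set gave a smaller difference of 1.68. Slc2a3, a high-affinity glucose transporter, gave 516 and 373 at 36 h and 825 and 641 at 60 h in CreER cultures under vehicle. Without Cre all 8 of its arrays lay between 91.2 and 96.2. Its log2 difference was 2.41 ± 0.14 (2.54 relative; limma adjusted p = 5.74e-65), and over all 8 arrays of each genotype its mean signal was 5.19 times as high. Its dim probe sets, at mean signals of 31.5 and 27.9, gave smaller differences of 1.59 and 1.55.

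Bnip3, a receptor that marks mitochondria for autophagy, gave 1120 and 757 at 36 h and 1657 and 1457 at 60 h in CreER cultures under vehicle, against 328 and 340, then 259.5 and 269.8 without Cre. No arrays of the genotypes overlapped, and the log2 difference was 1.95 ± 0.13 (2.08 relative). Pdk1 gave 644 and 491, then 828 and 769, against 241 and 222, then 172 and 230 without Cre. Its log2 difference was 1.57 ± 0.13 (1.70 relative). Adm, the vasodilator peptide adrenomedullin, was higher by 1.31 ± 0.13 and Vegfa, the main growth factor of blood vessels, by 1.22 ± 0.13. The widely expressed glucose transporter Slc2a1 was higher by 1.19 ± 0.13. Adjusted p-values of these 5 genes lay between 5.65e-46 and 2.78e-17 (limma). Slc16a1, which exports lactate (0.69 ± 0.13), and Ndrg1, a stress-responsive gene (0.61 ± 0.14), passed with smaller differences. A dimmer Ndrg1 probe set, at a mean signal of 117, gave 1.25.

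Among the enzymes, Hk2, the inducible hexokinase that phosphorylates glucose, was higher by 0.82 ± 0.13. Pfkl, a phosphofructokinase, was higher by 0.76 ± 0.13 and Tpi1, triose phosphate isomerase, by 0.63 ± 0.10. Relative to all genes these 3 differences were 0.95, 0.90 and 0.76. No array of CreER vehicle cultures overlapped the arrays without Cre for any of them. Ldhb, the lactate dehydrogenase subunit that favours pyruvate, was lower by 0.51 ± 0.13 on the log2 scale, and Hif1a was lower by 0.47 ± 0.12 (limma adjusted p = 0.000383 and 0.000945). Relative to all genes these were -0.38 and -0.34, and their arrays did not overlap, as in 18.1% of all genes. The other 3 Hif1a probe sets, at mean signals of 680, 326 and 11.8, gave -0.21, -0.07 and 0.78, and with all its probe sets averaged the Hif1a difference was 0.0068 (adjusted p = 0.975). With the ratio of 5' to 3' actin signal as a covariate, the Ldhb difference was -0.30 (adjusted p = 0.21) and that of Hif1a -0.18 (adjusted p = 0.5).

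With values as deposited, the remaining enzymes differed little. Pgk1, phosphoglycerate kinase, gave 7143 and 7384 at 36 h and 8113 and 6902 at 60 h in CreER cultures under vehicle, against 7554 and 7864, then 6606 and 7037 without Cre, a log2 difference of 0.02 ± 0.09. Ldha, the lactate-forming subunit, differed by 0.09 ± 0.09, Gapdh by 0.17 ± 0.09, Aldoa (aldolase) by 0.23 ± 0.10 and Pgam1 (phosphoglycerate mutase) by 0.23 ± 0.11. None of these 5 passed (limma adjusted p = 0.0506 to 0.871), although the arrays of Aldoa and Gapdh did not overlap between genotypes. The ratio of 5' to 3' Gapdh signal, over both treatments, averaged 0.975 at 36 h without Cre. It averaged 1.23 at 60 h without Cre and 1.22 at both times with CreER. Hk1, Pfkm, Pfkfb3 and Pkm gave 0.14, 0.16, 0.23 and -0.11 without passing. Relative to all genes, Aldoa, Pgam1 and Pfkfb3 were higher by 0.36 each, Gapdh by 0.30, Pfkm by 0.29 and Hk1 by 0.28. Ldha, Pgk1 and Pkm were then at 0.22, 0.16 and 0.02. Of the other members Ddit4, Pdk3 and Egln1 did not pass, at 0.28, 0.09 and -0.05. Scaling to a common trimmed mean raised the members called to 24, 22 higher and 2 lower, beside 55.7% of all genes. Of the enzymes Pkm alone did not pass then, and of the other members Egln1 alone. Leaving out any 1 array kept between 14 and 17 members called. Culture origin and genotype cannot be told apart here, and markers differed too. The 8 progenitor markers summed to between 19025 and 23308 on CreER vehicle arrays and between 19565 and 26112 without Cre. Over all arrays of each genotype Nes averaged 1776 with CreER and 2912 without Cre, Notch1 1255 and 1044, and Sox2 1736 and 1689. The rest of that list was lower with CreER: Pax6 averaged 182 and 328, Msi1 237 and 277, Vim 6734 and 7520, Fabp7 5650 and 5806, and Olig2 3437 and 3543. The 7 astrocyte markers summed to between 1967 and 2329 and between 2265 and 3388, a sum that Slc1a3 dominates. Within that list Gja1 (34.5 against 162), S100b (328 against 534) and Slc1a3 (1459 against 2116) were lower with CreER. Aldh1l1 was higher (164 against 64.9), as was Slc1a2 (62.3 against 7.40), which lay below the filter. Gfap and Aqp4 lay below it too, at 30.2 against 31.2 and 8.62 against 12.0. The 6 neuron markers summed to between 1449 and 1755 and between 1558 and 2238, mostly Map2. Over all arrays of each genotype Map2 averaged 1345 with CreER and 1775 without Cre, and Syt1 55.0 and 177. Below the filter, Tubb3 and Snap25 were lower with CreER and Dcx and Rbfox3 higher. The part of these markers in these results was not tested.

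**Figure D1:**
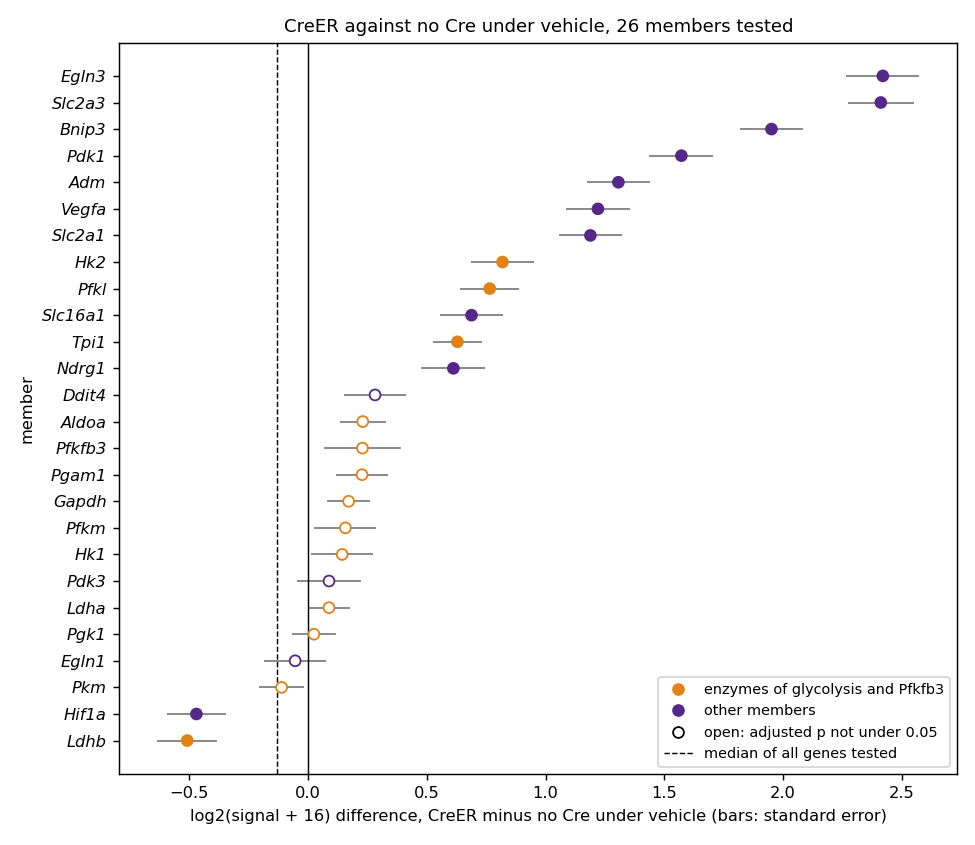
Log2(signal + 16) difference of each of the 26 members tested between CreER cultures and cultures without Cre under vehicle, with standard errors; orange points are enzymes with Pfkfb3, purple points the other members, filled points had an adjusted p below 0.05 and the dashed line is the median of all genes at -0.13. Egln3 and Slc2a3 lead at 2.42 and 2.41, 8 enzymes lie between 0.02 and 0.23, and Ldhb and Hif1a lie lowest at -0.51 and -0.47.

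**Figure D2:**
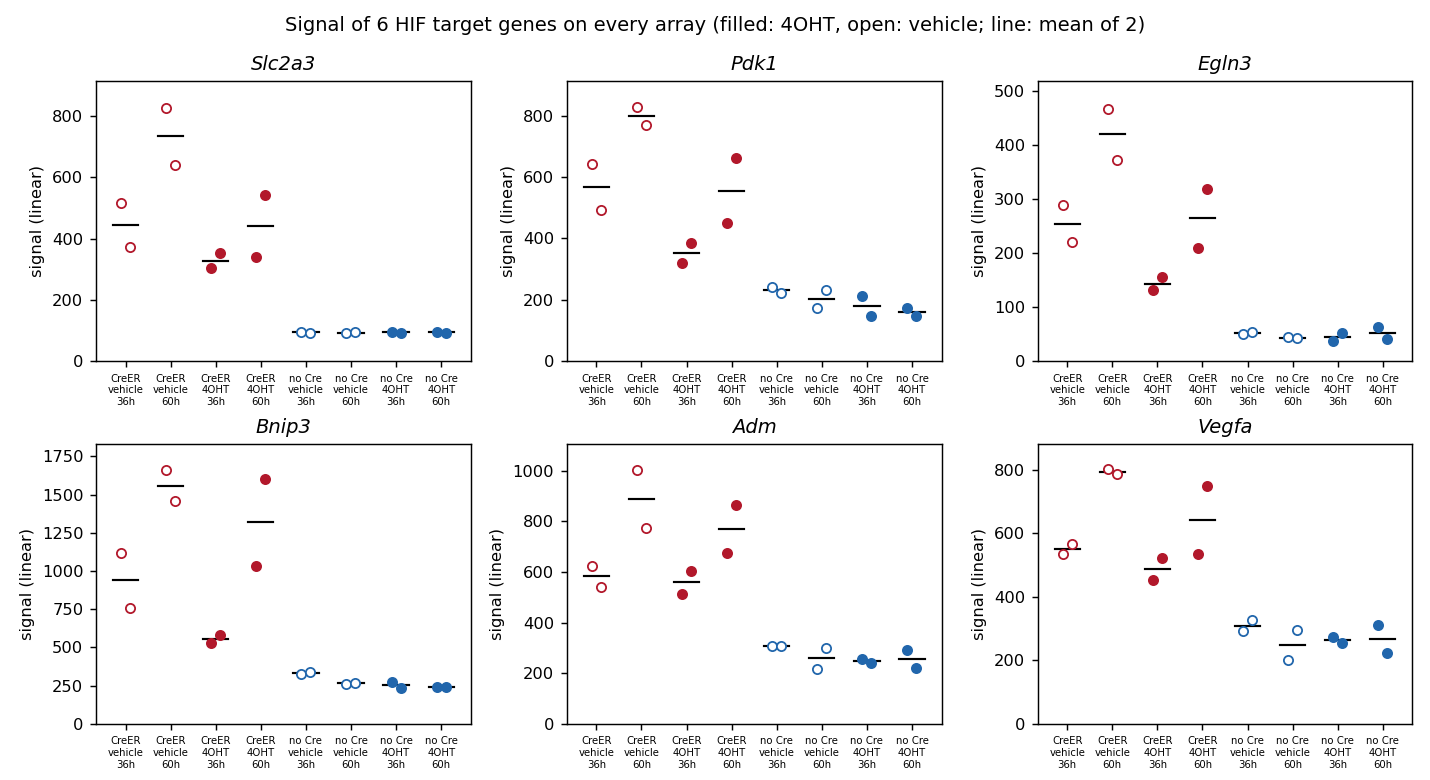
Linear signal of 6 HIF targets on each of the 16 arrays, by group; open points are vehicle, filled points 4OH-TM and lines the mean of 2 arrays. CreER arrays lie above those without Cre in every panel, and within CreER cultures vehicle at 60 h has the highest mean of each gene.

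Other genes of the same pathways were given from lists of 93 symbols, of which 55 were tested. Under vehicle 14 of them were higher in CreER cultures and 8 lower, beside 7.97% of all genes higher and 26.6% lower (34.5% in all). Fam162a, a HIF-induced mitochondrial gene (0.80 ± 0.12), Mif, a cytokine (0.68 ± 0.10), Pgm1, a phosphoglucomutase (0.71 ± 0.13), and Eno3, an enolase (0.85 ± 0.17), were among those higher. The annexin Anxa2 was lower by 1.99 ± 0.14 and Cited2, which competes with HIF for its coactivators, by 0.77 ± 0.13 on the log2 scale. Of the 27 other reported HIF targets tested, 9 were higher, 3 lower and 15 did not pass, with a median of 0.04.

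With time in CreER cultures, 8 of the 13 other members rose and 0 of the 13 member enzymes passed the test. From 36 h to 60 h, over both treatments, 8 of 26 members rose and 0 fell, beside 1.69% of all genes higher and 3.58% lower (5.28% called in either direction; limma). Slc2a1, Slc16a1, Pdk3, Ddit4 and Hif1a did not pass, at -0.03, -0.07, -0.08, 0.10 and -0.09. The 13 other members had a median of 0.52; the 13 enzymes had a median of 0.08 and the median of all genes was -0.04. Bnip3 went from 1120 and 757 to 1657 and 1457 under vehicle, and from 526 and 580 to 1033 and 1605 under 4OH-TM. Its rise of 0.97 ± 0.13 (limma adjusted p = 3.44e-10) held under each of 12 alternatives and each of 8 left-out arrays. Egln3 rose by 0.74 ± 0.15, which held under 11 alternatives and the same left-out arrays. Egln1, the main oxygen-sensing hydroxylase, rose by 0.60 ± 0.13, from 1025 and 736 to 1484 and 812 under vehicle and from 503 and 683 to 868 and 1342 under 4OH-TM. Its arrays at the 2 times overlapped.

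Pdk1 rose by 0.55 ± 0.13, Slc2a3 by 0.54 ± 0.14, Ndrg1 by 0.52 ± 0.14, Adm by 0.52 ± 0.13 and Vegfa by 0.44 ± 0.13 (limma adjusted p = 0.00199 to 0.0224). For Adm the arrays of the times did not overlap: 625, 542, 512 and 605 at 36 h, 1005, 773, 675 and 864 at 60 h. That was so of 1.46% of all genes upward and 1.15% downward. These 8 calls leaned on single arrays: 3 were left without the second vehicle array at 36 h, 4 without the first 4OH-TM array at 36 h, and 4 without the second 4OH-TM array at 60 h. Without a filter on low signal 2 were left, Bnip3 and Egln3. After scaling to a common trimmed mean 16 members were called, all higher, 8 of them enzymes, beside 23.4% of all genes. The enzyme differences were then small, from 0.10 for Pkm, the pyruvate kinase, to 0.25 for Ldhb.

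Without Cre, 0 of 26 members changed with time, beside 4.09% of all genes called, 2.52% higher and 1.57% lower (limma; 0 members at an unadjusted p below 0.05). In 0 of 26 members did the arrays of the times separate, beside 2.47% of all genes upward and 7.24% downward. The median of all genes was -0.11 as deposited and -0.02 after trimmed mean scaling. Egln3, Slc2a3 and Bnip3 gave log2 differences of -0.02 ± 0.15, -0.01 ± 0.14 and -0.19 ± 0.13. Relative to all genes these were 0.10, 0.11 and -0.08. Scaled arrays gave calls whose direction depended on the scaling. With the trimmed mean 4 members were higher (Pfkl, Pfkm, Gapdh and Pkm, beside 27% of all genes). Quantile normalization gave 5 higher, with no share of all genes given beside it. Median scaling gave 8 lower, beside a larger share of all genes, 3507 of 7620 called in either direction. The median of all genes was then -0.14.

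The change with time itself differed between the genotypes for 5 members, all larger in CreER cultures, beside 2.14% of all genes called (0.866% higher, 1.27% lower). Bnip3 differed by 1.16 ± 0.19 (limma adjusted p = 4.41e-07), Egln1 by 0.78 ± 0.19 (0.00365), Egln3 by 0.76 ± 0.22 (0.0296), Pdk1 by 0.72 ± 0.19 (0.0135) and Adm by 0.63 ± 0.19 (0.0464). Vegfa, at 0.61 ± 0.19, did not pass (0.0565). A second Vegfa probe set moved oppositely with time in cultures without Cre (0.34, against -0.16) and gave a difference of 0.19. RNA quality moved with these results: the ratio of 5' to 3' actin signal was 0.614 ± 0.0534 (SD, n = 4) at 36 h without Cre, and 0.825 ± 0.0548, 0.776 ± 0.0454 and 0.826 ± 0.0729 (SD, n = 4 each) at 60 h without Cre and at 36 h and 60 h with CreER. With that ratio as a covariate 0 of 26 members were called, and Bnip3 differed by 0.89 (adjusted p = 0.0777). Leaving out single arrays gave 1 to 7 calls, and of the 5 members Bnip3 alone kept its call in every such fit. It was the 1 member called without the second CreER vehicle array or the first CreER 4OH-TM array at 36 h, or without the first vehicle array at 60 h without Cre. Trimmed mean scaling gave 8 calls, beside 16.7% of all genes.

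**Figure D3:**
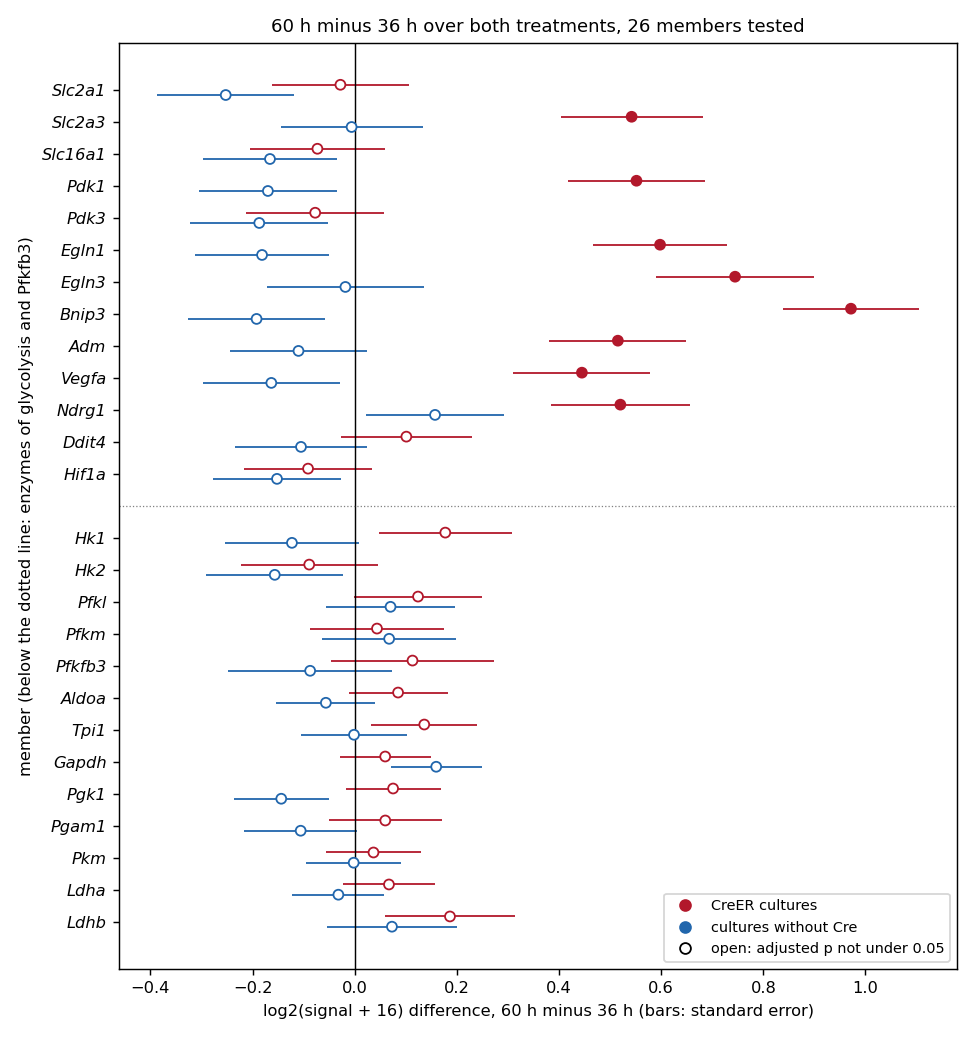
Log2(signal + 16) difference between 60 h and 36 h over both treatments for the 26 members tested, with standard errors; red points are CreER cultures, blue points cultures without Cre, and filled points had an adjusted p below 0.05. The 8 filled points are HIF targets in CreER cultures, led by Bnip3 at 0.97, and blue points lie between -0.25 and 0.16.

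Among other pathway genes Eno3 rose by 1.31 ± 0.17 with time in CreER cultures and Ppp1r3c, a glycogen-targeting subunit that HIF induces, by 0.89 ± 0.13. The hormone gene Stc1 (0.63 ± 0.16), Anxa2 (0.45 ± 0.14) and Fam162a (0.45 ± 0.12) rose as well, while the transferrin receptor Tfrc fell by 0.59 ± 0.12 on the log2 scale. In all 5 of 55 were higher and 1 lower, beside 1.69% and 3.58% of all genes. Of the 27 other reported HIF targets among them 4 rose, 1 fell and 22 did not pass. Without Cre Pgp, a phosphoglycolate phosphatase, was higher by 0.46 ± 0.13 and Tfrc lower by 0.45 ± 0.12, beside 4.09% of all genes called. The change with time differed between genotypes for Eno3, Ppp1r3c, Fam162a and the cyclin gene Ccng2, 4 of 55, beside 2.14% of all genes.

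Adding 4OH-TM to CreER cultures, the comparison that addresses recombination of Tlx, moved 8 of the 26 members tested. Over both times 2 of 26 rose and 6 fell, beside 4% of all genes higher and 8.36% lower (12.4% in either direction; limma). The other members held 1 of the rises and 5 of the falls, with a median log2 difference of -0.29 (-0.22 relative to all genes), against 1 rise, 1 fall and a median of -0.06 in the enzymes and -0.07 over all genes. Scaled to a common trimmed mean, 5 members were higher and 7 lower, beside 18.9% and 19.5% of all genes (38.4% in either direction). Comparisons of treatment, time and genotype share arrays and are not independent of each other. The 6 neuron markers, whose sum is mostly Map2, summed to between 1449 and 1755 on CreER vehicle arrays and between 973 and 1488 with 4OH-TM, while Tubb3, Dcx and Snap25 were near background. The part of this change in the results was not tested.

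Ddit4, an inhibitor of the growth kinase mTORC1, gave 1140 and 1147 at 36 h and 1481 and 1087 at 60 h with vehicle, and 1669 and 1846, then 1609 and 2065 with 4OH-TM. All 4 arrays with 4OH-TM were above all 4 with vehicle, as 2.72% of all genes were. It rose by 0.56 ± 0.13 (limma adjusted p = 0.000387). Ldhb gave 1040 and 1157, then 1271 and 967 with vehicle, and 1354 and 1448, then 1722 and 1879 with 4OH-TM. Its arrays did not overlap either and it rose by 0.52 ± 0.13 (adjusted p = 0.00107). Its other 3 probe sets gave 0.49, 0.58 and 0.61. Both genes passed under every alternative and with every array left out.

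**Figure D4:**
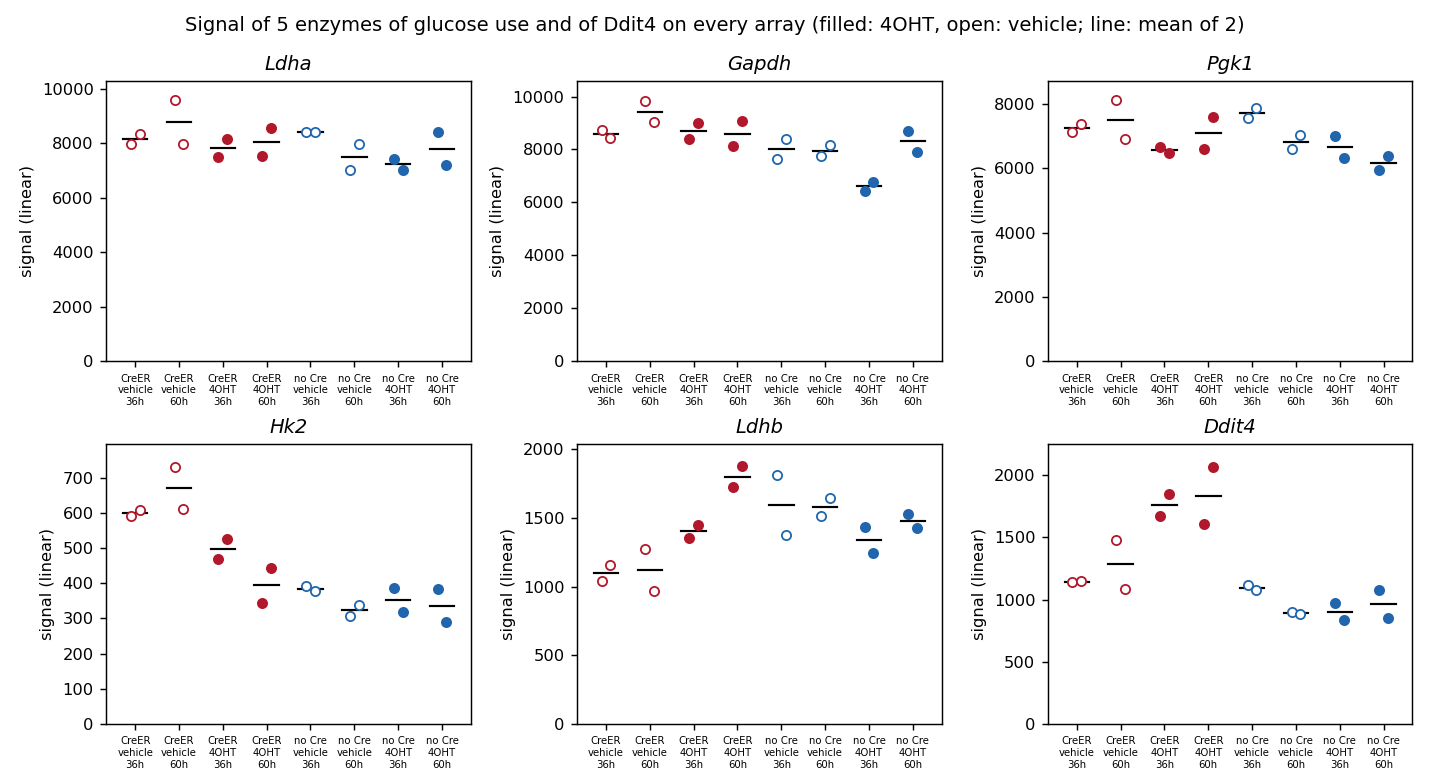
Linear signal of 5 enzymes and of Ddit4 on each of the 16 arrays, by group; open points are vehicle, filled points 4OH-TM and lines the mean of 2 arrays. Filled CreER points lie above the open ones for Ldhb and Ddit4 and below them for Hk2, while Ldha, Gapdh and Pgk1 overlap.

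Hk2 was the enzyme that fell. It gave 592 and 608, then 730 and 613 with vehicle, and 471 and 525, then 345 and 445 with 4OH-TM, with no overlap, as in 6.35% of all genes. Its fall was 0.51 ± 0.13 on the log2 scale (a change of -0.51; limma adjusted p = 0.00314), and it held under every alternative and left-out array. Slc16a1 fell by 0.40 ± 0.13 without overlap, from 1241, 1394, 1515 and 1180 to 1037, 1094, 820 and 1088. That call (adjusted p = 0.0267) was lost when any of 5 of the 8 arrays was left out: the second vehicle array at 36 h, the first at 60 h, either 4OH-TM array at 36 h and the first at 60 h (adjusted p up to 0.184). It was also lost with no filter, with the replicate block and with the compared arrays alone, at up to 0.0967.

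Egln3 fell by 0.71 ± 0.15, from 289, 220, 468 and 373 to 131, 155, 210 and 320. Pdk1 fell by 0.59 ± 0.13, from 644, 491, 828 and 769 to 321, 386, 451 and 661 (limma adjusted p = 0.000162 and 0.000356). Within each time the 4OH-TM arrays of both genes were below the vehicle arrays, as in 27.6% of all genes at 36 h and 24.4% at 60 h, and across times they overlapped. Both calls held under all alternatives and left-out arrays. Slc2a3 fell by 0.58 ± 0.14, from 516, 373, 825 and 641 to 302, 353, 338 and 541. Without the first 4OH-TM array at 60 h its change was -0.41 (adjusted p = 0.055). Bnip3 fell by 0.49 ± 0.13 (adjusted p = 0.00405), and lost its call without the first vehicle array at 36 h or without the first 4OH-TM array at either time (adjusted p up to 0.12), and with no filter (0.0526). Without that first 4OH-TM array at 60 h, the dimmest of all at a trimmed mean of 300.7, 5 members were called in place of 8.

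The remaining 18 members did not pass. Ndrg1 came closest at -0.36 ± 0.14 (limma adjusted p = 0.061), then Egln1 at -0.29 ± 0.13 (0.134). Vegfa, Slc2a1 and Adm gave -0.25 ± 0.13, -0.21 ± 0.13 and -0.13 ± 0.13. Hif1a gave 0.11 ± 0.12, and its other probe sets gave -0.23, -0.09 and, at a mean signal of 11.8, -0.54. Pdk3, a second pyruvate dehydrogenase kinase, gave -0.10 ± 0.13. Of the enzymes, Hk1, the constitutive hexokinase, gave 0.15 ± 0.13 and Pfkl -0.21 ± 0.13. Pfkm, the muscle-type phosphofructokinase, gave -0.06 ± 0.13 and Pfkfb3, which makes the activator of phosphofructokinase, -0.07 ± 0.16. The other 7, Aldoa, Tpi1, Gapdh, Pgk1, Pgam1, Pkm and Ldha, lay between -0.11 and 0.03 with standard errors of 0.09 to 0.11.

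**Figure D5:**
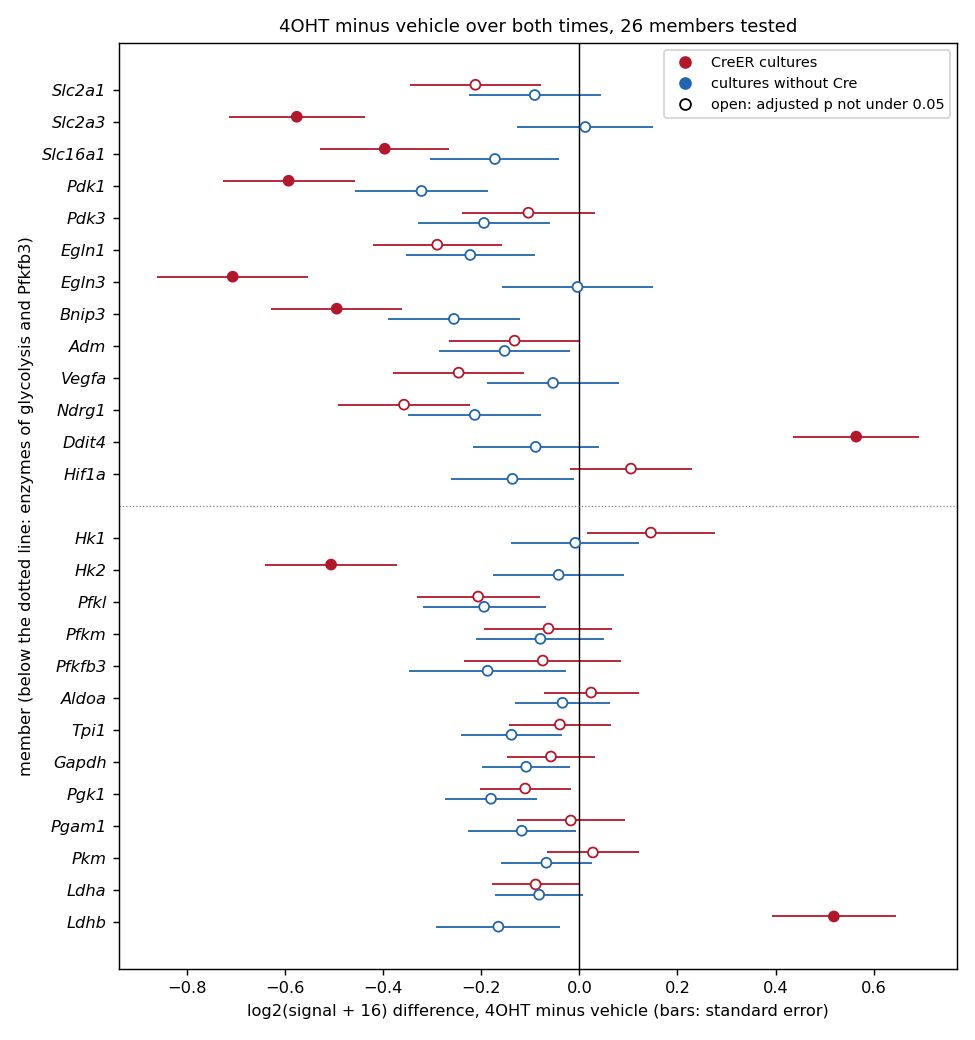
Log2(signal + 16) difference between 4OH-TM and vehicle over both times for the 26 members tested, with standard errors; red points are CreER cultures, blue points cultures without Cre, and filled points had an adjusted p below 0.05. In CreER cultures 6 filled points run from -0.71 to -0.40 and Ldhb and Ddit4 lie above 0.50, while no blue point is filled.

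Taken at each time alone, 4 members passed at 36 h and 4 at 60 h. At 36 h Bnip3 (-0.72 ± 0.19), Egln3 (-0.76 ± 0.22) and Pdk1 (-0.65 ± 0.19) were lower and Ddit4 (0.61 ± 0.18) higher, with limma adjusted p of 0.0115, 0.0268, 0.0302 and 0.0352, beside 2.61% of all genes called (1.12% higher, 1.5% lower). Bnip3 went from 1120 and 757 to 526 and 580. These calls leaned on single arrays: 0 remained without the first vehicle array or either 4OH-TM array, and 3 without the second vehicle array, where Ddit4 was lost. At 60 h Hk2 (-0.75 ± 0.19), Slc2a3 (-0.74 ± 0.20) and Egln3 (-0.66 ± 0.22) were lower and Ldhb (0.69 ± 0.18) higher, with limma adjusted p of 0.00311, 0.00519, 0.04 and 0.00404, beside 6.99% of all genes (2.36% higher, 4.63% lower). Relative to the median of all genes at 60 h (-0.11, and 0.00 after trimmed mean scaling) they were -0.64, -0.64, -0.55 and 0.80. Hk2, Slc2a3 and Egln3 were lost without the first array of either treatment, where 2 members were called, and Ldhb without the second vehicle array. With the 4 compared arrays alone 0 members passed at 60 h. Ddit4 and Ldhb were higher on both 4OH-TM arrays than on both vehicle arrays at each time, as were 17% of all genes at 36 h and 7.49% at 60 h. A dim Slc2a3 probe set, at a mean signal of 27.9, gave 0.45 at 36 h against -0.41 from the one used.

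Trimmed mean scaling gave 3 higher and 4 lower members at 36 h, and 4 higher and 5 lower at 60 h, beside 22.1% and 28.7% of all genes. The response did not pass a test of difference between the times for any of 26 members, beside 0.197% of all genes, 0.0919% larger and 0.105% smaller at 60 h (limma; 1 member, Egln1, at an unadjusted p below 0.05, and 0 after each rescaling, where trimmed mean scaling called 1.88% of all genes). Egln1 gave -0.56 ± 0.19 at 36 h and -0.02 ± 0.19 at 60 h, while its second probe set gave -0.33 and -0.35.

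Cultures without Cre showed no member changed by 4OH-TM: 0 of 26 passed, beside 0.0656% of all genes, 0.0131% higher and 0.0525% lower (limma; 1 member, Pdk1 at -0.32 ± 0.13, at an unadjusted p below 0.05, and 0 called after each rescaling, beside 0.512% of all genes with the trimmed mean). The median of the members was -0.13 and that of all genes -0.06. Slc2a3 gave 94.8 and 93.3, then 91.2 and 93.8 with vehicle and 95.3 and 92.4, then 96.2 and 92.7 with 4OH-TM. Ddit4 and Ldhb gave -0.09 ± 0.13 and -0.17 ± 0.13.

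The responses of the genotypes were compared directly. Ldhb (0.68 ± 0.18, limma adjusted p = 0.0109) and Ddit4 (0.65 ± 0.18, 0.0227) responded more in CreER cultures, 2 of 26 members beside 2.34% of all genes (1.52% higher, 0.814% lower). Egln3 (-0.70 ± 0.22, 0.0516), Slc2a3 (-0.59 ± 0.20, 0.091), Hk2 (-0.46 ± 0.19, 0.251), Pdk1 (-0.27 ± 0.19, 0.696), Bnip3 (-0.24 ± 0.19, 0.759) and Slc16a1 (-0.22 ± 0.19, 0.776) did not pass. With values as deposited, a fall particular to CreER cultures was thus not shown for the 6 members that fell there. After trimmed mean scaling 7 members passed, 3 higher (Ldhb, Ddit4 and Hif1a) and 4 lower (Egln3, Slc2a3, Hk2 and Slc16a1), beside 19.1% of all genes. The same 4 were lower with quantile normalization and with median scaling (limma adjusted p up to 0.0439). Quantile normalization called 1466 of all genes. Pdk1 and Bnip3 passed under none of the 3 rescalings. With no filter 0 members passed. Ldhb lost its call without the second CreER 4OH-TM array at 36 h, the first vehicle array at 36 h without Cre or the second 4OH-TM array at 36 h without Cre (adjusted p up to 0.144). Ddit4 kept its call in 6 of 16 such fits (adjusted p up to 0.122).

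After 4OH-TM in CreER cultures, 4 of the 55 pathway genes beyond the members were higher and 2 lower over both times, beside 4% of all genes higher and 8.36% lower (12.4% in either direction). Eno3 (0.68 ± 0.17), Pdk2, another pyruvate dehydrogenase kinase (0.54 ± 0.15), the haem-degrading Hmox1 (0.49 ± 0.13) and Cited2 (0.40 ± 0.13) were higher, Ak4, a mitochondrial adenylate kinase (-0.42 ± 0.13), and Cul2, part of the ligase that destroys HIF (-0.40 ± 0.13), were lower. Eno3 and Hmox1 kept these calls with any array left out. Pdk2 lost its call without the second 4OH-TM array at 36 h or at 60 h, and Ak4, Cul2 and Cited2 lost theirs in 4, 5 and 5 of the 8 such fits. At 36 h Hmox1 was higher by 0.75 ± 0.19, and at 60 h Eno3 by 0.79 ± 0.23 and Pdk2 by 0.70 ± 0.22. Pdk2 also differed between the genotypes' responses (0.71 ± 0.22, limma adjusted p = 0.0467). Of the 6 pentose phosphate genes tested 0 passed over both times (limma; 1 at an unadjusted p below 0.05, Rpia, named after its value was seen, and 3 after trimmed mean scaling).

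Signal ranges over all 8 CreER arrays and all 8 arrays without Cre complete the account of the members tested. Pfkl lay between 1702 and 2495 with CreER and between 976 and 1299.6 without Cre, and Tpi1 between 4829 and 6444 and between 2892 and 3785. Slc2a1 lay between 417 and 797 and between 221 and 322, and Vegfa between 452 and 801 and between 199.998 and 325. For these 4 genes the ranges did not meet. Aldoa lay between 5924 and 7218 and between 4850 and 5867, which also did not meet. The ranges of Slc2a3, Egln3, Bnip3, Pdk1 and Adm did not meet either. The share of all genes with ranges apart over all arrays is not given, so these ranges are description only. Under vehicle 2631 of the 7620 genes tested were called between the genotypes. Hk1 overlapped, as did every gene that follows: it lay between 863 and 1393 with CreER and between 759 and 1077 without Cre. Pfkm lay between 969.99 and 1230.08 and between 866 and 1082, and Pgam1 between 3169.8 and 4094 and between 2483 and 3295. Pkm lay between 6157 and 7423 and between 6370.08 and 7626, and Ldha between 7501 and 9566 and between 7006 and 8421. Highest and lowest CreER arrays of these 5 enzymes lay closer to each other, in proportion, than those of Vegfa. Gapdh lay between 8113 and 9817 and between 6428 and 8697, and Pfkfb3 between 93.0 and 127 and between 56.6 and 102. Pdk3 lay between 275 and 379 and between 231 and 357, and Ndrg1 between 250.3 and 569 and between 182 and 299.5. Hif1a lay between 1173 and 1678 and between 1511 and 2101, its CreER arrays being the lower ones.

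The 3 members below the filter are described by signal only. Eno2, the neuronal enolase, gave 81.3 and 48.7, then 151 and 111 with vehicle and 57.9 and 74.6, then 73.3 and 137 with 4OH-TM in CreER cultures, and between 5.83 and 22.5 without Cre. Every CreER array was above every array without Cre, again with no share of all genes given beside it. Pfkp, the platelet-type phosphofructokinase, gave 21.2 and 12.6, then 46.1 and 20.9 with vehicle and 47.6 and 48.1, then 53.9 and 108 with 4OH-TM in CreER cultures. Without Cre it gave 9 to 27.8. Slc16a3, the lactate exporter of strongly glycolytic cells, lay between 4.54 and 42.3 on all 16 arrays, with the genotypes overlapping.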

How the data were processed

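RNA of 16 neural stem cell cultures was measured on Affymetrix arrays, 1 sample per array. The deposited values are linear signal intensity per probe set, made by the authors with MAS5 per the submitters' processing notes; its version and scaling target are not given in the sources used here. The members and the lists of other genes were chosen with earlier results of these data known. Each gene was read from its brightest probe set, by mean log2(signal + 16), and tested if that mean was at or above 6.07 (a signal of 51.1), the 40th percentile over probe sets. limma 3.58.1 in R 4.3.3 fitted 8 group means to all 16 arrays (8 residual degrees of freedom, empirical Bayes with trend, two-sided tests, Benjamini-Hochberg adjustment at 0.05). limma estimated an infinite prior, so each standard error is that typical of genes of like brightness and not the gene's own; after trimmed mean scaling the prior had 6.94 degrees of freedom. The added 16 makes differences of dim genes too small. Symbols came from the platform annotation and promoter windows from RefSeq. The number of arrays limits precision. Members are all named; of the 55 other pathway genes, up to 6 past the threshold with the smallest p were named per comparison. The fit was tested on simulated data. Alternatives were 3 rescalings (the trimmed mean one, which trims 2% at each end, chosen after seeing the data), 2 pseudocounts, 2 filters, all probe sets averaged, no trend, a replicate block, the actin ratio as a covariate, the compared arrays alone and each array left out.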

Additional observations from a re-analysis of the deposited data

Results flagged for a closer look

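Ldhb, Ddit4 and Pdk2 responded differently to 4OH-TM in the 2 genotypes, by an interaction test (limma). The difference of responses, CreER minus no Cre, was 0.68 for Ldhb (adjusted p = 0.0109), 0.65 for Ddit4 (0.0227) and 0.71 for Pdk2 (0.0467). All 3 kept their direction when single arrays were left out, and Pdk2 kept its call in 4 of 16 such fits.

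The change from 36 h to 60 h also differed between the genotypes, by the interaction of time and genotype. Among members it was larger in CreER cultures for Bnip3 (1.16, adjusted p = 4.41e-07), Egln1 (0.78, 0.00365), Egln3 (0.76, 0.0296), Pdk1 (0.72, 0.0135) and Adm (0.63, 0.0464), all limma values. Among other pathway genes it was larger for Eno3 (1.44, 4.41e-07), Ppp1r3c (0.86, 0.000841), Fam162a (0.61, 0.0194) and Ccng2 (0.65, 0.0341). With the actin ratio as a covariate Eno3 kept its call (adjusted p up to 0.0299 over its 10 alternatives), and the other 8 lost theirs.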

How the results depend on the processing

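Of 45 member results called, 20 kept direction and call under every alternative and 19 of these also with every array left out. The Hif1a difference between genotypes reversed, to 0.0068 with all its probe sets averaged. Members called, by comparison (as deposited 4 at 36 h, 4 at 60 h, 2 for the difference of responses, 14 for genotype, 8 for time with CreER, 0 for time without Cre, 5 for the difference of time changes), were as follows. With the trimmed mean they were 7, 9, 7, 24, 16, 4 and 8. With quantile normalization they were 7, 8, 7, 24, 16, 5 and 8. With median scaling 60 h had 7, the difference of responses 6, genotype 24, time without Cre 8 and the difference of time changes 8. With no filter 36 h had 0, 60 h 2, the difference of responses 0, time with CreER 2 and the difference of time changes 1. A filter at the 60th percentile left 3 for the difference of time changes, a pseudocount of 64 gave 4 for the difference of responses, and the compared arrays alone gave 0 at 60 h. The actin covariate gave 2 at 36 h, 9 at 60 h, 5 for the difference of responses and 0 for the difference of time changes. Calls over all genes moved with the processing too. Over the alternatives they ran from 14 to 1683 at 36 h (199 as deposited) and from 53 to 2262 at 60 h (533). The difference of responses ran from 41 to 1466 (178), genotype from 1285 to 4245 (2631) and time with CreER from 204 to 1783 (402). Time without Cre ran from 14 to 3507 (312) and the difference of time changes from 38 to 1306 (163). The highest of these counts came with the trimmed mean at 36 h, for genotype and for time with CreER. They came with quantile normalization at 60 h and for both differences, and with median scaling for time without Cre. Higher member counts after rescaling thus went with higher counts over all genes. Causes were not tested.

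Leaving out 1 array gave 5 to 10 members called for 4OH-TM in CreER cultures (8 with all arrays), 0 to 3 at 36 h, 2 to 8 at 60 h, 0 to 4 for the difference of responses, 14 to 17 for genotype, 3 to 8 for time with CreER and 1 to 7 for the difference of time changes; the others stayed at 0.

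Whether replicate numbers pair the samples cannot be told from 2 arrays per group. Differences between the replicates of a group correlated between groups of a genotype at -0.12 to 0.31. The highest value was that of vehicle and 4OH-TM at 36 h without Cre. With the replicate block 1 member was called at 36 h, 1 for the difference of responses and 3 for the difference of time changes. Signal near background limits Eno2, Pfkp and Slc16a3.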
